A study of Homo sapiens with 3 samples.

Results

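The regions described here are the places where peaks of p63 and ZNF148 had summits within 25 bp of each other in FaDu, an established human line of pharyngeal squamous carcinoma cells. Members were selected on summit positions: a p63 peak counted when 1 bp or more of it was shared with a ZNF148 peak and when its summit, the base with the highest signal, lay within 25 bp of a ZNF148 summit. Of 21520 p63 peaks on chromosomes 1 to 22 and X, 2906 met this rule, which is 13.5% of them. Each was paired with a ZNF148 peak of its own, so that the same 2906 pairs made up 7.67% of the 37883 ZNF148 peaks. The positions of peaks and summits in both lists chose the members, so their overlap and their short summit distances are descriptions and not findings.

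In this chromatin immunoprecipitation sequencing (ChIP-seq) study, untreated FaDu cells gave 1 library for ΔNp63α (anti-ΔNp63α, D2K8X), 1 for ZNF148 (anti-ZNF148, ab227076) and 1 of input DNA, for which no antibody was used. Per the labels, the DNA came from 3 independent assays, and each antibody has 1 peak list. No value below therefore has a replicate error, no p-value is given, and a line that is a single tumour model stands behind every site. Intervals printed with shares are 95% Wilson intervals, which cover counting error alone.

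p63 belongs to the p53 family, whose members bind a palindromic response element through a DNA-binding domain that they share. ΔNp63α lacks the N-terminal transactivation domain, is the main form in basal cells of squamous epithelia, and is known for opening and maintaining epithelial enhancers. ZNF148, also called ZBP-89, is a zinc finger protein of the Krüppel type that binds GC-rich and CACCC-like elements and is known to activate or repress promoters that Sp1 also binds. The title of the series names cooperation of both proteins in head and neck squamous carcinoma. All positions are in hg19. Neither sequences nor gene names are printed for the sites, because no genome sequence or annotation of that build was used here.

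Besides its fold enrichment, each deposited peak carries a −log10 p. Both numbers follow from the pileup (the number of fragments of the library that lie over the summit) and the local background that the peak caller set against it. Solving for the pair gave a whole-number pileup for 100% of the 21922 p63 rows and 100% of the 39669 ZNF148 rows. The largest difference between the deposited and the recomputed −log10 p was 8.6e-05 for p63 and 0.000118 for ZNF148. Sites can thus be described by fragments, whose counting error can be computed, whereas a fold alone does not show its own. The lowest background, which scales with the depth of a library, was 1.27 fragments for p63 and 0.386 for ZNF148. Divided by the fragment lengths of 149 and 150 bp read from the steps of the background, these values put the p63 library at 3.30 times the depth of the ZNF148 library.

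The coincident sites were strong in both libraries. The p63 pileup had a median of 86 fragments (quartiles 49 and 129, lowest 10, highest 276) and the ZNF148 pileup a median of 47 (quartiles 26 and 66, lowest 5, highest 170). p63 peaks that overlapped ZNF148 with summits farther apart, 1654 in number and called offset here, had a median p63 pileup of 49 and a median ZNF148 pileup of 22. The 16960 p63 peaks without any ZNF148 overlap had a median of 34, and the 33314 ZNF148 peaks without p63 one of 13. A summit is placed less exactly where fragments are few, so a rule on summit distance favours strong peaks, and this order is not independent of it. Within the coincident sites, pileups fell with distance. Medians were 99 fragments for p63 and 53 for ZNF148 at 0 to 5 bp (961 sites), and 61 for p63 and 31 for ZNF148 at 21 to 25 bp (243 sites).

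The distances between summits, which the rule used, are given as a description. Their median was 9 bp, with quartiles of 4 and 14 bp. The ZNF148 summit lay at the lower coordinate at 1416 sites, at the higher coordinate at 1411 and on the same base at 79. The signed distance, ZNF148 minus p63, averaged −0.08 bp with an SD of 11.7 bp over sites. Numbers per base were between 160 and 186 from 1 to 7 bp and declined to 51 at 25 bp. The limit of 25 bp cut through a smooth tail: 33 p63 peaks had the next distance, 26 bp. The 89 sites at 24 to 25 bp had median pileups of 57 for p63 and 28 for ZNF148, and the 72 offset peaks at 26 to 27 bp had 58 for p63 and 26 for ZNF148. Single sites on either side of the limit looked alike as well. At 25 bp, the site on chromosome 15 at 81989562 to 81990117 had 179 p63 and 89 ZNF148 fragments. At 26 bp, the peak on chromosome 3 at 126050521 to 126051025 had 164 p63 and 91 ZNF148 fragments.

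**Figure D1:**
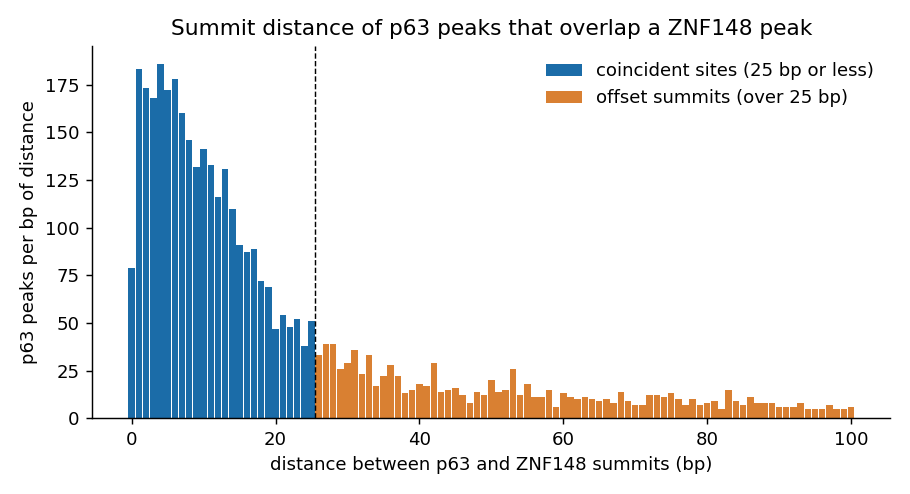
Number of p63 peaks per bp of distance between the p63 summit and the nearest summit of an overlapping ZNF148 peak, shown up to 100 bp. Blue bars are the coincident sites, orange bars the offset ones, and the dashed line marks the limit; the numbers decline without a step at 25 bp, from 51 at 25 bp to 33 at 26 bp.

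The ZNF148 interval was usually the wider one of a pair. The p63 intervals at coincident sites had a median length of 293 bp and the ZNF148 intervals one of 344 bp, although the ZNF148 library was the shallower one. The ZNF148 interval was the longer one at 82.9% of sites (81.5 to 84.3%), and it enclosed the whole p63 interval at 62.1% (60.3 to 63.8%), whereas the reverse nesting was found at 6.81% (5.95 to 7.79%). The p63 summit sat at the middle of its interval, at a median of 49.7% of its length (quartiles 47.0 and 52.3%). Starts differed by a median of 29 bp and ends by 28 bp, which describes the pairs and is not independent of the limit on summit distance.

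Most coincident sites were single summits. A second summit in the same interval was listed at 0.860% of the p63 intervals (25 of 2906) and at 0.723% of the ZNF148 intervals (21 of 2906). On the p63 side, several summits were listed at 2.90% of offset intervals and at 0.643% of those without ZNF148. In rank class 1 of 10 of the p63 list by q value, the most significant one, the shares were 1.93% of coincident, 7.05% of offset and 1.29% of intervals without ZNF148. The order against unshared peaks was the other one on the ZNF148 side. In rank class 1 of the ZNF148 list, formed likewise, 0.817% of coincident intervals had several summits (12 of 1469), against 10.9% of offset ones (30 of 275) and 19.1% of those without p63 (391 of 2044). Their median pileups were close, at 65 fragments for coincident, 66 for offset and 64 for intervals without p63. Median lengths there were 374 bp, 387 bp and 406 bp in the same order.

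The pileups of the proteins rose together at coincident sites, though not in strict proportion. After division of the p63 pileup by the depth ratio of 3.30, the p63/ZNF148 ratio of pileups had a median of 0.582, with quartiles of 0.468 and 0.690. At this ratio, 0.521 ZNF148 fragments were found for each p63 fragment, so that the ZNF148 pileup was the higher one after scaling for depth. High pileups may be compressed by a cap on fragments per start and strand, and p63 pileups were the higher ones before scaling. The part of such a cap in the ratio was not tested. The ratio of deposited folds had a median of 1.07. It differs from the pileup ratio because the fold formula adds 1 to pileup and background, which lowers the folds of the shallower ZNF148 library more. Across the 2906 sites the Spearman correlation of the pileups was 0.76, and across the 1654 offset sites it was 0.25. The depth-scaled ratio was higher where the p63 pileup, which is part of it, was higher. That Spearman correlation was 0.34 at coincident and 0.64 at offset sites. These are descriptions over sites of 1 pair of libraries.

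At the strongest sites most ratios lay close together, with a spread near the one computed from counting. Of the coincident sites, the 726 with the highest product of both pileups had median pileups of 145 for p63 and 75 for ZNF148. Their ratio had a median of 0.587 and quartiles of 0.528 and 0.647, and the Spearman correlation of their pileups was 0.29. A site with a high pileup of 1 protein and a low one of the other falls lower in this order. The spread is therefore not independent of the sort. On the log2 scale the spread of the ratio, taken as an SD from the quartiles, was 0.22. Counting error alone, computed for fragments without a cap, gives 0.21 for pileups of this size. High pileups may be compressed by a cap of 1 fragment per start and strand, which the value of 0.21 leaves out. The ordinary SD over the same sites, which the outlying ones widen, was 0.29. The exact 95% binomial interval of a site's own ratio held the overall median of 0.582 at 648 of these 726 sites (89.3%). Its bounds lay below the median at 59 sites and above it at 19, so a minority departed from proportionality even here. The 72 offset sites of at least this strength had a spread of 0.57 and a median ratio of their own of 0.668. Their intervals were set against 0.582, the median of the coincident sites, and held it at 41.7% of the 72.

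Coincident sites with a lower product of both pileups departed more from the median ratio. The sort also places sites with 1 high and 1 low pileup among them. With the remaining sites in 3 groups of falling strength, the interval held the median at 73.6%, 70.4% and 78.8% of them, and counting error alone was largest in the weakest. Over all 2906 sites the spread was 0.42, against 0.27 from counting, and the interval held the median at 78.0%. It lay below the median at 14.0% and above it at 8.02%. Over all offset sites the spread was 1.19, against 0.39 from counting, and their own median ratio was 0.652. The interval held the median of the coincident sites, 0.582, at 47.9% of them. Closeness of summits barely moved the median ratio among members, which was 0.580 at 0 to 5 bp and 0.597 at 21 to 25 bp, but the quartiles at 21 to 25 bp were wider, at 0.405 and 0.782. For weak peaks the limits of the lists bound the ratio from both sides, since a pileup below 9 for p63 or 5 for ZNF148 was not listed anywhere.

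**Figure D2:**
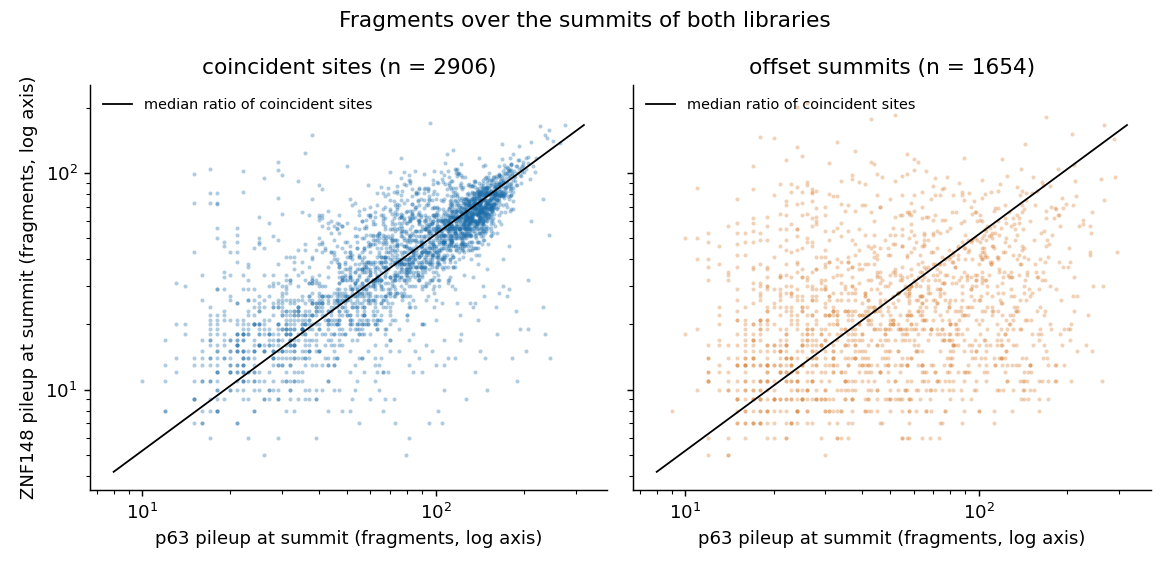
Pileup of p63 (horizontal) and ZNF148 (vertical) at the paired summits, in fragments on log axes, 1 point per site. The 2906 coincident sites (left) follow the line of their median ratio and tighten toward high pileups, and the 1654 offset sites (right) scatter widely around the same line.

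The most highly ranked coincident site of each chromosome shows the proportion site by site. On chromosome 9 at 139001474 to 139001871, 276 p63 fragments stood over the summit and 166 ZNF148 fragments, a ratio of 0.504. On chromosome 14 at 46020482 to 46020819 there were 218 p63 and 101 ZNF148 fragments with summits 2 bp apart, and the ratio was 0.654, the highest of the 23. On chromosome 20 at 8581152 to 8581512 the pileups were 130 for p63 and 79 for ZNF148, with the lowest ratio, 0.499. All 23 ratios lay between these bounds, and the exact binomial interval of each one held the overall median. These sites were picked for a high rank in both lists, which by itself keeps the ratio away from its extremes. They had a median of 1 other ZNF148 peak within 100 kb, with 40 around the site on chromosome 9 and none around 4 of the 23.

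Further best sites of a chromosome had these values. On chromosome 19, the best site at 38328369 to 38328759 had 141 p63 and 74 ZNF148 fragments with summits 1 bp apart (ratio 0.577). On chromosome 4, the best site at 112258373 to 112258733 had 196 p63 and 106 ZNF148 fragments (ratio 0.560). On the X chromosome, the best site at 127916886 to 127917269 had 174 p63 and 82 ZNF148 fragments (ratio 0.643). The p63 pileup of the best site ranged from 276 on chromosome 9 to 127 on chromosome 22, at 29059505 to 29059872, where ZNF148 had 76 fragments.

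Across whole chromosomes the ratio was similarly even while the number of sites was not. Median ratios ranged from 0.543 on chromosome 12 (134 sites) to 0.706 on chromosome 21 (18 sites). The 95% interval of the median, from order statistics, held the overall median on 20 of 23 chromosomes. The exceptions were chromosomes 7, 8 and 12, with medians of 0.556, 0.553 and 0.543, all below it. Over the same chromosomes the coincident share of p63 peaks reached 30.2% on X and 2.94% on chromosome 22. Between these extremes, chromosome 5 had 19.4% (17.3 to 21.8%), chromosome 18 had 17.5% (13.8 to 21.9%), chromosome 1 had 10.6% (9.31 to 11.97%) and chromosome 16 had 7.63% (6.04 to 9.59%). Median p63 pileups of the members were not ordered by the share: they were 70 on X, 88 on chromosome 4, 105 on chromosome 17 and 71 on chromosome 22.

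**Figure D3:**
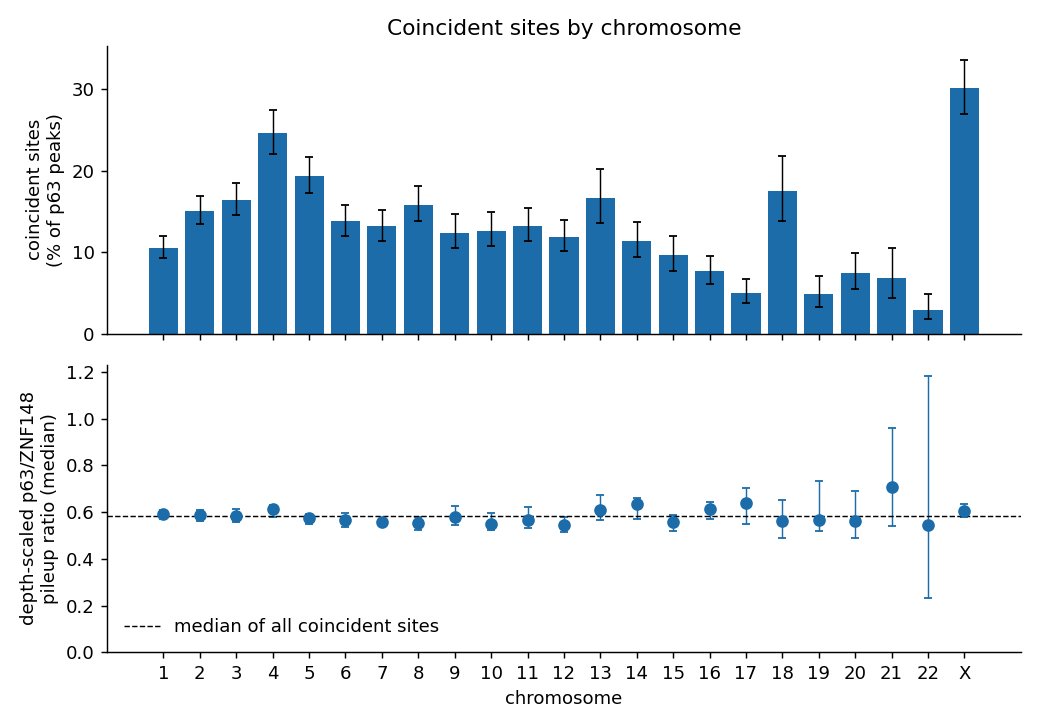
Coincident sites as a share of the p63 peaks of each chromosome, with 95% Wilson intervals (top), and the median depth-scaled p63/ZNF148 pileup ratio of these sites with 95% order-statistic intervals (bottom). The share varies from 2.94% to 30.2%, while most medians sit near the dashed line at 0.582; chromosomes 21 and 22, with 18 and 14 sites, have wide intervals.

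Among the strongest p63 peaks, coincident ones and ones without a listed ZNF148 peak were about equally frequent, and offset ones were fewer. In p63 rank class 1 of 10, which holds the 2152 most significant peaks, 984 were coincident, or 45.7% (43.6 to 47.8%), 241 were offset and 927 had no ZNF148 peak. Their p63 pileups were alike, with medians of 141 at coincident peaks, 148 at offset ones and 147 at those without ZNF148. At the 984 coincident peaks the ZNF148 pileup had a median of 68 fragments (quartiles 58 and 79), and 14 of them had fewer than 20. At the 241 offset peaks it had a median of 30 (quartiles 16 and 55). The rule on summit distance favours strong ZNF148 peaks, so this difference is not independent of it.

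The deposited lists hold no ZNF148 value at the 927 strong p63 peaks without a ZNF148 peak, so its level there was not measured. For scale, p63 pileups such as theirs correspond, at the median ratio of sites chosen for having both peaks, to 76.6 ZNF148 fragments at the median and at least 55.2 each. The pileup needed to reach the weakest p-value of the ZNF148 list, given the input at each site, had a median of 6 fragments and at most 22. No ZNF148 summit lay within 1 kb of 841 of the 927 (90.7%). A peak also has to reach a minimum length to be listed. The median ratio comes from sites that have both peaks and need not hold at these 927. The part of depth in the missing ZNF148 peaks was not tested.

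**Figure D4:**
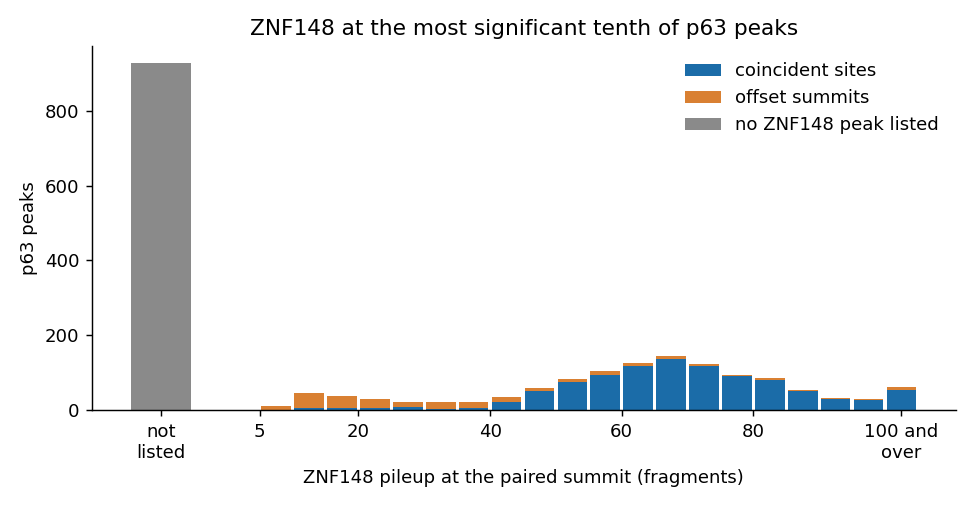
ZNF148 pileup, in fragments, at the 2152 p63 peaks of rank class 1 of 10, in bins of 5 fragments with the last bin open; blue is coincident, orange offset, and the grey bar counts the 927 p63 peaks without a ZNF148 peak. The coincident peaks form a hump around their median of 68, and the offset ones pile up at low values. The grey bar has no place on the pileup axis, because no ZNF148 pileup is listed for its peaks.

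The share of coincident sites dropped through the rank classes of p63. It was 27.4% in class 2 (25.5 to 29.3%), 18.8% in class 3 (17.2 to 20.5%), 3.21% in class 9 (2.54 to 4.04%) and 2.23% in class 10 (1.69 to 2.94%). At the median ratio a p63 peak of class 10, with a median of 16 fragments at its coincident sites, would come with few ZNF148 fragments, so in the low classes weak ZNF148 signal and its absence cannot be told apart. From the side of ZNF148, 38.8% of its rank class 1 (37.2 to 40.3%) were coincident sites, and of its class 10 0.528% (0.342 to 0.814%) were.

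Coincident sites lay apart from other peaks. Within 10 kb, 88.1% of them had no other ZNF148 peak, compared with 52.1% of offset sites and 66.5% of p63 peaks without ZNF148. Within 100 kb they had 2.28 other ZNF148 peaks on average, against 8.02 at offset sites and 4.89 at p63 peaks without ZNF148. Other p63 peaks were fewer too, with averages of 1.37 at coincident sites, 3.19 at offset sites and 2.53 at p63 peaks without ZNF148. The difference was also present among p63 peaks of like strength. In rank class 1, coincident sites had 2.07 other ZNF148 peaks within 100 kb, against 9.99 at offset sites and 6.82 at p63 peaks without ZNF148. Over all ranks, the average at coincident sites was below that at p63 peaks without ZNF148 on 23 of 23 chromosomes. The weakest p63 peaks were an exception in the comparison with p63 peaks without ZNF148. In rank class 9 the averages were 4.48 at the 69 coincident sites, 8.40 at offset sites and 4.45 at p63 peaks without ZNF148. In rank class 10 the averages were 6.31 at the 48 coincident sites, 9.27 at offset sites and 4.75 at p63 peaks without ZNF148.

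Read the other way, the surroundings of a strong p63 peak went along with whether ZNF148 coincided there. Of the p63 peaks in rank class 1 with no other ZNF148 peak within 100 kb, 266 of 344 were coincident sites, or 77.3% (72.6 to 81.4%). With 1 to 2 others the share was 67.2%, with 3 to 5 it was 34.0%, with 6 to 10 it was 12.7%, and with 11 or more it was 8.39% (5.79 to 12.01%). Offset overlaps ran in the opposite order, from 4.36% with no other peak to 26.8% with 11 or more. Over all p63 peaks the coincident share was 26.8% with no other ZNF148 peak and 4.06% with 11 or more. With 200 kb to either side in place of 100 kb, 90% (82.6 to 94.5%) of class 1 peaks without another ZNF148 peak were coincident.

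**Figure D5:**
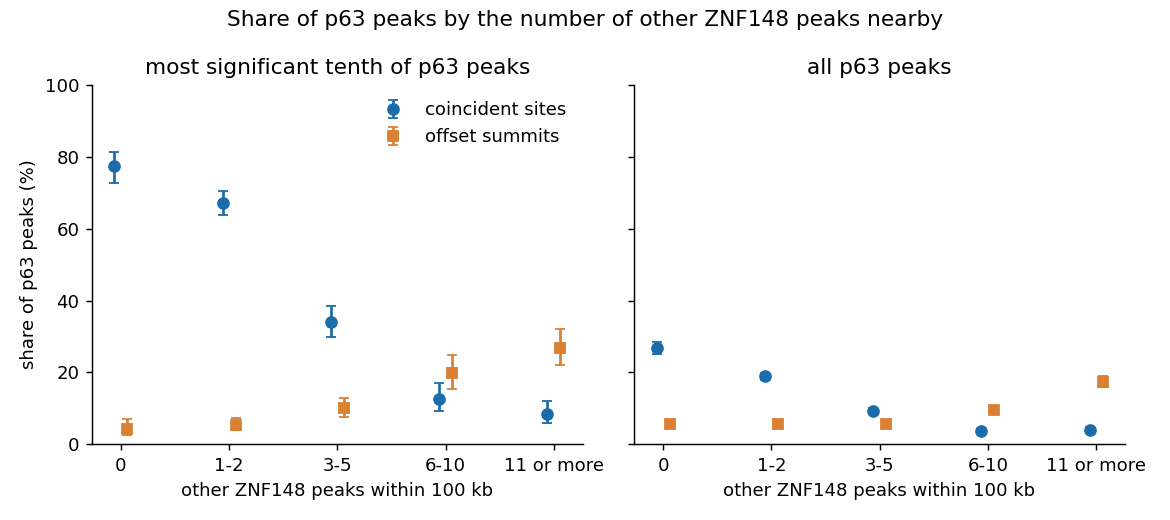
Share of p63 peaks that are coincident (blue) or offset (orange), by the number of other ZNF148 peaks within 100 kb of the p63 summit, with 95% Wilson intervals, for rank class 1 of 10 (left) and all p63 peaks (right). The coincident share falls with more ZNF148 neighbours in class 1, from 77.3% to 8.39%, while the offset share grows from 4.36% to 26.8%.

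The proportion between both pileups also varied with the surroundings. At the 854 coincident sites with no other ZNF148 peak within 100 kb, the spread of the log2 ratio was 0.37 and the Spearman correlation of the pileups 0.83. At the 106 sites with 11 or more others, the spread was 1.27 and the correlation 0.26. These 106 sites were weaker, with median pileups of 60.5 for p63 and 25.5 for ZNF148, against 83 and 44 at the 854; counting error alone gives a spread of 0.37 for the 106 and 0.27 for the 854. The intermediate groups had spreads of 0.40 with 1 to 2 others, 0.42 with 3 to 5 and 0.75 with 6 to 10. Median ratios differed little between the ends, at 0.591 with none and 0.622 with 11 or more. The coincident sites in dense surroundings thus had a spread near that of the offset sites (1.19).

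The sites with the most extreme ratio of folds illustrate both directions. Over all coincident sites the depth-scaled ratio of pileups ran from 0.046 to 5.30, and the site at 5.30 is not among those named. The p63/ZNF148 ratio of folds was highest on chromosome 5 at 150994973 to 150995301, with 190 p63 and 11 ZNF148 fragments and a depth-scaled ratio of 5.23 (exact interval 2.86 to 10.7). Another on chromosome 12 at 120702376 to 120702678 had 127 p63 and 9 ZNF148 fragments, with 18 other ZNF148 peaks within 100 kb. At both sites the ZNF148 pileup was low in its list, which begins at 5 fragments. The ratio of folds was lowest on chromosome 16 at 84430188 to 84430336, with 15 p63 and 99 ZNF148 fragments and a depth-scaled ratio of 0.046 (0.025 to 0.079). A site on chromosome 7 at 129609740 to 129609894 had 17 p63 and 104 ZNF148 fragments. Both had a strong ZNF148 peak and a p63 pileup near 9, the lowest one listed. The 3 members with the highest rank number in either list were all picked by their ZNF148 rank, since the ZNF148 list is the longer one and rank numbers this high do not occur in the p63 list. They had ZNF148 pileups of 5 on chromosome 5 at 171909474 to 171909776, 6 on chromosome 14 at 100573682 to 100573955 and 5 on chromosome 13 at 81643779 to 81643988.

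The coincident sites were spread out along the chromosomes. Neighbouring sites were a median of 574 kb apart (quartiles 196 and 1293 kb), 12 of 2883 gaps were under 10 kb, and 24.9% of sites (23.4 to 26.5%) had another within 100 kb. Chains with gaps under 100 kb held 2 sites in 265 cases, 3 in 48, 4 in 10 and 5 in 2, and no chain was longer. In the chain on chromosome 15 from 81966238 to 82163607, p63 pileups were 126, 179, 158, 122 and 125 in order of position, and ZNF148 pileups 57, 89, 82, 90 and 76. These 5 sites accounted for 5 of the 6 p63 and 5 of the 7 ZNF148 peaks of that stretch. The chain on chromosome 6 from 87380379 to 87631465 was weaker, with p63 pileups of 32, 70, 32, 45 and 44 and ZNF148 pileups of 11, 46, 17, 43 and 39. The ratio ranged from 0.411 to 0.670 within the chain on chromosome 15 and from 0.317 to 0.881 within that on chromosome 6.

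Of the 10 chains of 4 sites, the 3 with the shortest span lay on chromosomes 5, 14 and 12. On chromosome 5 from 7130818 to 7231295, the 4 sites were the sole p63 and the sole ZNF148 peaks, with p63 pileups of 61, 121, 126 and 37 and ZNF148 pileups of 22, 88, 65 and 16. On chromosome 14 from 40058897 to 40172601, p63 pileups were 134, 30, 115 and 60 and ZNF148 pileups 88, 98, 41 and 36. The second of these sites, at 40108313 to 40108512, stood out with a ratio of 0.093 between neighbours at 0.461 and 0.850. On chromosome 12 from 55480584 to 55604818, p63 pileups were 120, 145, 53 and 157 and ZNF148 pileups 63, 70, 51 and 53.

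The input DNA gave a measure that the rule does not name. It is not independent of membership, because the peaks of both lists were called against a background from the input. Above its floor, the local background moved in steps of whole input fragments, worth 0.989 in the p63 list and 0.2996 in the ZNF148 list. From floor, step and fragment length, the input behind the p63 list held 8.59 fragments per kb of the genome size that was set, and the input behind the ZNF148 list 8.59 as well. At the 79 sites with both summits on the same base, the backgrounds expressed in input fragments were equal within 1% in all 79. In 54 of these both were above the floor, with 1.30 to 6 input fragments. Both lists were therefore set against equal input values at the same bases, and a low input at a site raised both folds together.

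Input was lower at coincident sites than at other p63 peaks. The background was at its floor at 40.6% of them (38.9 to 42.4%), compared with 31.6% of offset sites (29.4 to 33.9%) and 29.3% of p63 peaks without ZNF148 (28.6 to 29.9%). Within p63 rank class 1 the shares were 31.5% at coincident sites, 19.5% at offset sites and 16.3% at p63 peaks without ZNF148 (14.1 to 18.8%). The share was higher at coincident sites than at p63 peaks without ZNF148 on 20 of 23 chromosomes. In ZNF148 rank class 1 it was 32.0% at coincident peaks and 21.9% at ZNF148 peaks without p63. Over all ZNF148 peaks, most of which are weak, the order was the other one, with 40.3% at coincident peaks and 44.4% at those without p63. A fold or q value is larger where the background is low, so the input enters the rank of a peak, and its part in the sharing of sites was not tested. The pileups themselves do not contain the input.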

How the data were processed

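Bowtie2 2.3.4.3, MACS2 2.2.6, SAMtools 1.7, FastQC 0.11.9, MultiQC 1.12 and the build hg19 are listed in the submitters' processing notes, without roles or settings; the handling of duplicates was not given in the sources used here. Each deposited fold (a ratio over local background), −log10 p, −log10 q and summit offset was used as the authors gave it. The deposited score was not used, being 10 times −log10 q rounded down. Rows with the same start and end were joined as 1 peak with the highest −log10 q. Positions are 1-based.

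Pileup k and background λ were solved from fold = (k + 1)/(λ + 1) and the Poisson upper tail above k, the known MACS2 formulas, which no label states for these files; a pileup counted as whole when the −log10 p differed by less than 0.0002. In 7 ZNF148 rows a second pileup was within this limit. With floor, 1 kb and 10 kb windows, 99.995% of p63 and 100% of ZNF148 backgrounds lay on steps of input fragments (within 0.0003). No pileup exceeded 295 for p63 or 293 for ZNF148. At most 1 fragment per start and strand would cap them at 298 and 300, so high pileups may be compressed. Pileups are fragments, not independent molecules.

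The script was tested on simulated data. Members, comparisons and named sites were chosen with earlier results of these data known, and pileups after the lists were seen. Sites named are the best of a chromosome by the worse of both ranks, those of extreme fold ratio, those at the 25 bp limit, the 5 chains with most sites (ties by shorter span) and the 3 with the highest rank number in either list. Planned motif, repeat, transcription start and gene list results, with their alternatives, were not made for want of an hg19 reference. Python 3.11.15, numpy 2.4.6, pandas 2.3.3 and scipy 1.17.1 were used.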

Additional observations from a re-analysis of the deposited data

Results flagged for a closer look

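Outside chromosomes 1 to 22 and X, 46 of 166 p63 intervals coincided with ZNF148 under the same rule. Of the 166 p63 intervals, 94 did not lie on contigs, and 37 of these 94 were coincident. The other 9 coincident intervals lay on contigs. Together the 46 make up 27.7% of the 166 p63 intervals (21.5 to 34.97%), beside 13.5% of the p63 peaks on chromosomes 1 to 22 and X. The 46 are given because no comparison above used them; that they exceed 3, the limit that a count of 0 allows, says nothing more. Their depth-scaled p63/ZNF148 pileup ratio had a median of 0.636 (quartiles 0.546 and 0.741), and their median folds were 20.9 for p63 and 16.2 for ZNF148.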

How the results depend on the processing

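Across all alternatives 75 values were recomputed: 49 lay inside the interval of the value in the report (for numbers of sites and the spread, within 1.5 times) and 26 lay outside. A change of direction was not looked for. The summit limit moved most. With 10, 50 and 100 bp, the number of sites was 1718, 3456 and 3937, of which the first moved by over 1.5 times. The share of p63 peaks was 7.98%, 16.1% and 18.3%, the median p63 fold 34.6, 29.6 and 27.8, and the median ZNF148 fold 33.2, 28.8 and 26.3. The median p63 length was 299, 288 and 285 bp, and the share of sites with another within 100 kb 17.6%, 28.7% and 31.4%. In p63 rank class 1 the share was 30.7%, 48.7% and 52.0%, and in class 10 it was 0.697%, 3.30% and 5.62%. With a ZNF148 list as long as the p63 list, the share of p63 peaks was 12.9% and the median folds 32.9 for p63 and 32.3 for ZNF148. Only the 200 kb window moved the coincident share of class 1 peaks without a ZNF148 neighbour, to 90%. The depth-scaled ratio stayed between 0.576 and 0.588 under all 8 alternatives run. The spread of the strongest sites was 0.22 to 0.24 with other summit limits. Counting every summit, an overlap of 50% or more, and stricter limits on q or fold moved nothing outside its interval. Ratios and windows were added after the data were seen. No paired analysis was possible because each antibody has 1 list. Depth limits weak sites: ZNF148 is not listed below 5 fragments.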
